A study of Mus musculus with 12 samples.

Results

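Cd63, Cd68, Ctsd, Acp5 and Tfe3, 4 genes of lysosomes and late endosomes and 1 transcriptional regulator of lysosomal genes, were followed in the RNAseq counts of sorted airway macrophages (AMs). The 5 genes were listed when the difference between the genotypes was already known, and their rows, 5 of the 19161 rows in the count table, were taken by gene. Each of the 5 rows passed edgeR's expression filter, as did 14255 rows in all. The count values of *Scnn1b*-Tg against WT chose these genes, so the genotype differences of the 5 genes are given as a description.

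The cells came from the lungs of untreated 6-week-old female C57BL/6 mice, *Scnn1b*-Tg and WT littermates, with 6 libraries per genotype. In *Scnn1b*-Tg mice the promoter of club cell secretory protein (CCSP) drives overexpression of *Scnn1b*, a sodium channel gene, in airway epithelium, so that the transgene is not aimed at the macrophages themselves. AMs were sorted as CD45+ Siglec-F+ CD11c+ cells from lungs digested with dispase, and the labels call each library airway macrophages of lung. The labels give 4 batches: 1 library of each genotype is in batch 1, 1 in batch 2 and 1 in batch 3, and the remaining 3 of each genotype are in batch 4. Libraries are called Tg 1 to Tg 6 and WT 1 to WT 6, and those numbered 1 to 3 belong to the batch of that number. In batch 4 the sample titles carry 1 flow cell name for the WT libraries and another for the *Scnn1b*-Tg libraries, so that genotype and flow cell cannot be told apart there. The labels do not say that each library is 1 mouse, and SDs measure the spread between these libraries. P-values of fits with a batch term measure the spread within batches.

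Lysosomes are acidic organelles in which hydrolases break down material taken up by phagocytosis and endocytosis or delivered by autophagy. Hydrolases are made in the endoplasmic reticulum and reach the lysosome through late endosomes, a vacuolar proton pump keeps the lumen acidic, and glycosylated membrane proteins line its wall. AMs take up inhaled particles, dying cells and used surfactant and are rich in lysosomes. Tfe3 belongs to a family of leucine zipper factors, with Tfeb and Mitf, that enter the nucleus when nutrient signalling at the lysosome is low and bind short E-box motifs near lysosomal and autophagy genes.

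The motif this family is known to bind holds CACGTG, and a related form is TCATGTG. RefSeq windows from 250 bases before to 50 bases after a gene's start (build GRCm38.p6, 32851 windows) were searched on both strands for these letters and for TCACGTGA and TCATGTGA. The longer forms overlap the shorter ones, since TCACGTGA contains CACGTG and TCATGTGA contains TCATGTG. The members have 8 windows, and each member has at least 1. The *Ctsd* window holds CACGTG at 245 and at 98 bases before the start, the nearer one within TCACGTGA. Of the 3 windows of *Acp5*, 1 holds TCATGTG, within TCATGTGA, 90 bases before its start, and the others hold no match. The windows of *Cd63*, *Cd68* and *Tfe3* hold none of these letters. The single *Cd63* window lies inside the span of the gene, which begins at chr10:128900989, so the sequence before that first base was not searched. The 250 bases before the start are shown for *Ctsd* (chr7:142387828-142388077, minus strand) and for the *Acp5* window with a match (chr9:22130599-22130848, minus strand). They are also shown for *Cd63* (chr10:128909095-128909344, plus strand), the gene with the largest genotype difference of the 5, whose window holds no match. Each is printed 5′ to 3′ on the strand of the gene, and capitals mark the matches, which in *Acp5* read as the reverse complement.
Ctsd: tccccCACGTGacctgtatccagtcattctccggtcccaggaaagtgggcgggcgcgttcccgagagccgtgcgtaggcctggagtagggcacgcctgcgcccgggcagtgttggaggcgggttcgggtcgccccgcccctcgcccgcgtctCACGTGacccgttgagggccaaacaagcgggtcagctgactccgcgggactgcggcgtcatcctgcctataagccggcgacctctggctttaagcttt
Acp5: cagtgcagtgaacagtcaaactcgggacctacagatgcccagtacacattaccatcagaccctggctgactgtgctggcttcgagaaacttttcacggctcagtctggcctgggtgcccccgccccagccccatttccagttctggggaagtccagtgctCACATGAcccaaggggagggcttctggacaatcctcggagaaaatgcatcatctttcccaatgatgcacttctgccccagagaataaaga
Cd63: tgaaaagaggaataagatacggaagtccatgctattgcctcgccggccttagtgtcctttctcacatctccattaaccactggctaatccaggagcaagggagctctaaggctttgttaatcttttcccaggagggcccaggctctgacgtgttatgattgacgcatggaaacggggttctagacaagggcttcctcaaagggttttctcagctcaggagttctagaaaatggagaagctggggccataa
CACGTG occurred in 7.15% of all windows and TCATGTG in 3.77%, the longer TCACGTGA in 0.974% and TCATGTGA in 0.986%. Among 186 windows of 154 genes on the lysosomal and endosomal lists described further on, CACGTG occurred in 42 (22.6%) and TCATGTG in 15 (8.06%). A match is a stretch of letters and does not show that a factor binds there.

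Levels are given as CPM, the counts of a row over the TMM-scaled total of its library. Totals lay between 40259958 and 121813289 counts, and batch 4 was lower than batches 1 to 3 (at most 51832335 against at least 65764040). Counting error is small at this depth, since the lowest count of a member in any library was 2625 (*Tfe3*). Of the airway macrophage markers, 7 of 15 had a named row, and their summed level ran from 25890 to 63240 CPM in *Scnn1b*-Tg and from 26220 to 36830 CPM in WT libraries, with Tg 1 the highest. *Chil3*, which encodes a chitinase-like protein, carried most of this sum, with 59070 CPM in Tg 1. A sum of the other 6 markers was added after these values were seen. It was 3576 to 4412 CPM in *Scnn1b*-Tg libraries, all below the 4566 to 4763 CPM of WT libraries, with 4171 CPM in Tg 1. *Mrc1* had the largest part in it, with means of 1972 CPM in *Scnn1b*-Tg and 2216 CPM in WT libraries (edgeR adjusted p = 0.489). *Siglecf*, the gene of a sort marker, was at 353 ± 100.5 CPM in *Scnn1b*-Tg and 441 ± 135 CPM in WT libraries (SD, n = 6), and *Siglecf*, *Cidec* and *Krt79* were the 3 of the 7 with an adjusted p-value under 0.1, all lower in *Scnn1b*-Tg AMs by log2 fold changes of −0.31, −0.36 and −0.65 (edgeR adjusted p = 0.0838, 0.0311 and 0.00916), against 0.652% of all rows and 4.85% of the rows with a gene name under that threshold. *Fabp4* at 0.39 and *Chil3* at 0.28 had values in the other direction (edgeR adjusted p = 0.144 and 0.431), so that 2 of the 7 were above 0 and 5 below. Tg 1 also had the highest summed level of the named dendritic cell markers (*Cd209a* and *Mgl2*, 2 of 8 tested). It was 82.9 CPM against a *Scnn1b*-Tg median of 3.88 and a WT range of 0.299 to 7.15. The study used the proteins of both genes as markers of alternative (M2) macrophage activation, so their level does not point to a single cell type. The named neutrophil markers (4 of 8) summed to 104 to 163 CPM in *Scnn1b*-Tg and 73.6 to 118 CPM in WT libraries, and 1 of them, *Mmp8*, was called higher (0.73, edgeR adjusted p = 0.0271; 3.65% of the rows with a gene name were called), while *Cxcr2* had 1.01 and *Csf3r* −0.35 (edgeR adjusted p = 0.299 and 0.248). *Mmp9* lay at 0.188 to 1.94 CPM in *Scnn1b*-Tg and 0 to 0.292 CPM in WT libraries (edgeR adjusted p = 0.183), so that 3 of the 4 were higher in value in *Scnn1b*-Tg AMs. Summed levels were at most 3.25 CPM in any library for the monocyte marker *Vcan* (1 of 8), 200.6 to 714 CPM in *Scnn1b*-Tg and 252 to 845 CPM in WT libraries for the T and NK cell marker *Cd2* (1 of 7), and 99.2 to 162 and 86.9 to 125 CPM for the epithelial markers *Cdh1* and *Foxj1* (2 of 8). No marker of eosinophils or B cells had a named row. Whether AMs themselves express the markers listed for other cells was not tested, so a level does not show that such cells were present. The study reported high purity for selected sorted samples, and by its deconvolution resident AMs made up the samples of both genotypes evenly. Counts of 0 were found for *Mmp9* in 4 WT libraries, for *Cd209a* in 2 WT libraries and for *Mgl2* in 1 *Scnn1b*-Tg library. Since whole sorted populations were sequenced, less RNA of a gene per cell and fewer cells that express it cannot be told apart, and the part of other cells in the results that follow was not tested.

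*Cd63* (ENSMUSG00000025351, chr10:128900989-128912822, plus strand, mm10) encodes a tetraspanin of late endosomes and lysosomes. Its level ran from 128 to 1199 CPM with a median of 456 in *Scnn1b*-Tg libraries, and from 56.0 to 573 CPM with a median of 214 in WT libraries. The groups overlapped over all 12 libraries because the level followed the batch, and within each batch every *Scnn1b*-Tg library was above every WT library. The share of all rows with this order was not counted. In batches 1, 2 and 3 the *Scnn1b*-Tg and WT libraries had 1199 and 573 CPM, 799 and 417 CPM, and 766 and 354 CPM. In batch 4 the *Scnn1b*-Tg libraries lay between 128 and 145 CPM and the WT libraries between 56.0 and 73.7 CPM. With batch as a covariate, the log2 fold change of *Scnn1b*-Tg over WT was 1.06 (SE 0.0737, n = 6 per group). It was thus close to a doubling in the batches with high CPM and in the batch with low CPM alike, with log2 differences of 1.06, 0.94, 1.11 and 1.09 in batches 1 to 4.

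*Cd68* (ENSMUSG00000018774, chr11:69664213-69666153, minus strand) encodes a heavily glycosylated lysosomal membrane protein that is widely used to mark macrophages. Its level ran from 661 to 900 CPM with a median of 771 in *Scnn1b*-Tg libraries, and from 468 to 612 CPM with a median of 546 in WT libraries. Every *Scnn1b*-Tg library was above every WT library, as for 33 of the 14255 rows (0.231%), or 1.72% of the rows with a gene name. No other gene of the 5 had this separation over all 12 libraries. The log2 fold change was 0.51 (SE 0.0814), just past the fold threshold of 0.5. The difference was largest in batch 1 (0.94, with 900 CPM in Tg 1 and 468 CPM in WT 1) and lay between 0.39 and 0.52 in the other batches.

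**Figure D1:**
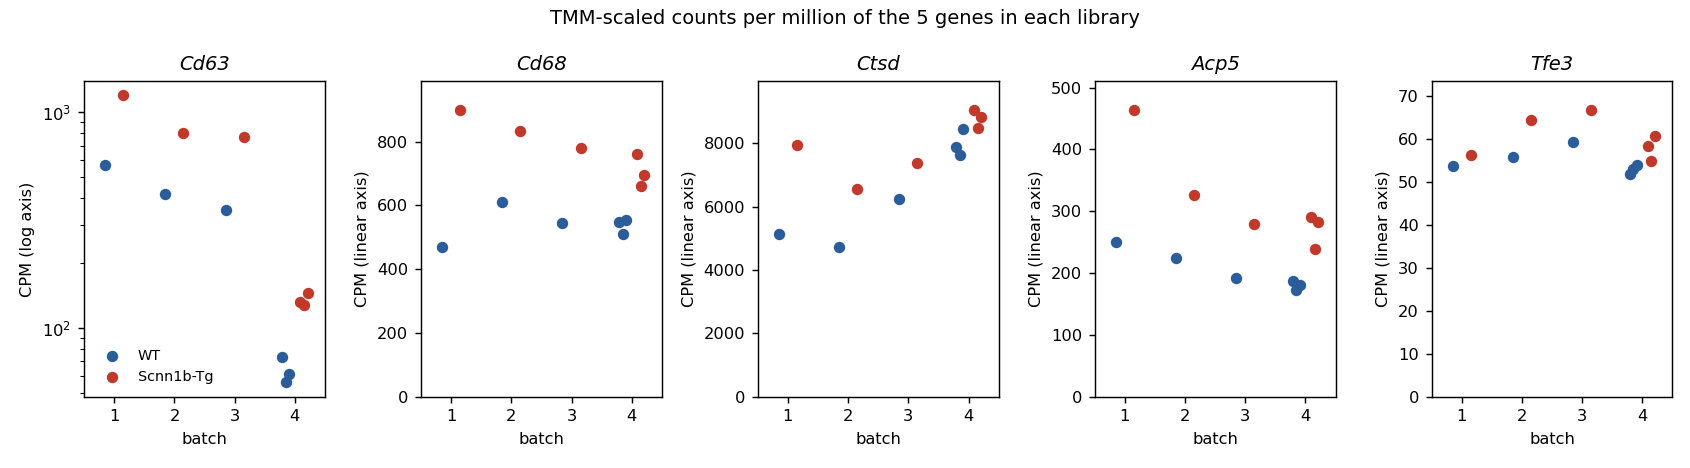
Level of the 5 genes in each of the 12 libraries, in TMM-scaled CPM (vertical axis, log for *Cd63* and linear from 0 for the others) by batch (horizontal axis), with *Scnn1b*-Tg libraries in red and WT libraries in blue. In each batch every *Scnn1b*-Tg point lies above every WT point for each gene, with 1 point per genotype in batches 1 to 3. The genes were listed with this comparison known, and the share of all rows with this order was not counted. *Cd63* drops from at least 354 in batches 1 to 3 to at most 145 in batch 4.

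*Ctsd* (ENSMUSG00000007891, chr7:142375911-142388038, minus strand) encodes cathepsin D, the main aspartic protease of lysosomes. It was among the most abundant rows of the table and held 0.41% to 1.08% of a library's counts, and it was the 3rd highest row in every library of batch 4. Its level ran from 6570 to 9058 CPM with a median of 8213 in *Scnn1b*-Tg libraries, and from 4713 to 8444 CPM with a median of 6933 in WT libraries. The groups overlapped over all libraries, and 3 of 6 *Scnn1b*-Tg libraries were above the highest WT library. Within batch 4 they were narrowly apart, at 8490 to 9058 CPM against 7636 to 8444 CPM. The log2 fold change was 0.29 (SE 0.0794), and it fell short of the fold threshold. The batch differences were 0.63, 0.48, 0.25 and 0.14 in batches 1 to 4. *Ctsd* shares 808 exon bases on its own strand with *Gm49369*, whose row has no name here, so counts of these genes may have been split between them.

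*Acp5* (ENSMUSG00000001348, chr9:22126727-22135711, minus strand) encodes tartrate-resistant acid phosphatase, an enzyme best known from osteoclasts and also found in AMs. Its level ran from 239 to 464 CPM with a median of 287 in *Scnn1b*-Tg libraries, and from 173 to 250 CPM with a median of 190 in WT libraries. Only Tg 5, at 239 CPM, was below the highest WT library, so that 5 of 6 *Scnn1b*-Tg libraries lay above every WT library. The log2 fold change was 0.62 (SE 0.0713). The batch differences were 0.89, 0.54, 0.53 and 0.58. *Acp5* shares 137 exon bases with *6530413G14Rik* on the opposite strand, and because strand was not used in counting, reads of the shared bases cannot be told apart.

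*Tfe3* (ENSMUSG00000000134, chrX:7762560-7775202, plus strand), the regulator, varied least of the 5. Its level ran from 54.9 to 66.8 CPM with a median of 59.5 in *Scnn1b*-Tg libraries, and from 51.9 to 59.3 CPM with a median of 53.8 in WT libraries. The groups overlapped, with 3 of 6 *Scnn1b*-Tg libraries above the highest WT library. The log2 fold change was 0.14 (SE 0.0598), and the batch differences lay between 0.06 and 0.20.

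Rows were called at an adjusted p-value under 0.1 with an absolute log2 fold change above 0.5 (quasi-likelihood test of edgeR, p-values adjusted by Benjamini-Hochberg). By this rule 70 of 14255 rows were called (0.491%), 58 of them higher (0.407%) and 12 lower (0.0842%) in *Scnn1b*-Tg AMs. *Cd63*, *Acp5* and *Cd68* were among the 58 and *Ctsd* and *Tfe3* were not, which is a description, since the members were listed with this comparison known. By fold change, *Acp5* was 46th and *Cd68* 56th of the 58, and *Cd63* was 33rd. By p-value, *Cd63* was 1st of all rows. The calls rest on the batch term. Without it no row was called, and in batches 1 to 3 alone, with 3 pairs of libraries, no row was called either. In batch 4 alone *Cd63* and *Acp5* were called and *Cd68* was not. *Cd68* was also not called without Tg 1 or WT 1, where its log2 fold change was 0.43 in each case, or without Tg 4 or WT 5.

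In each of the 4 batches all 5 genes were higher in *Scnn1b*-Tg than in WT AMs, as were 1273 of the 14255 rows (8.93%) and 695 of the 1917 rows with a gene name (36.3%). The named rows were selected by p-value, since they come from a table of the study that is cut at its least significant end. In the 3 pairs of batches 1 to 3 the mean log2 difference was 1.04 ± 0.0914 for *Cd63*, 0.66 ± 0.206 for *Acp5*, 0.64 ± 0.267 for *Cd68*, 0.45 ± 0.193 for *Ctsd* and 0.15 ± 0.0729 for *Tfe3* (SD, n = 3). The order of *Cd63*, *Acp5*, *Cd68* and *Ctsd* by these means was the same in batch 4, and there *Tfe3* at 0.13 was next to *Ctsd* at 0.14. It did not hold in every batch. In batch 1 *Cd68* at 0.94 was above *Acp5* at 0.89, and in batch 2 *Ctsd* at 0.48 was above *Cd68* at 0.45.

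**Figure D2:**
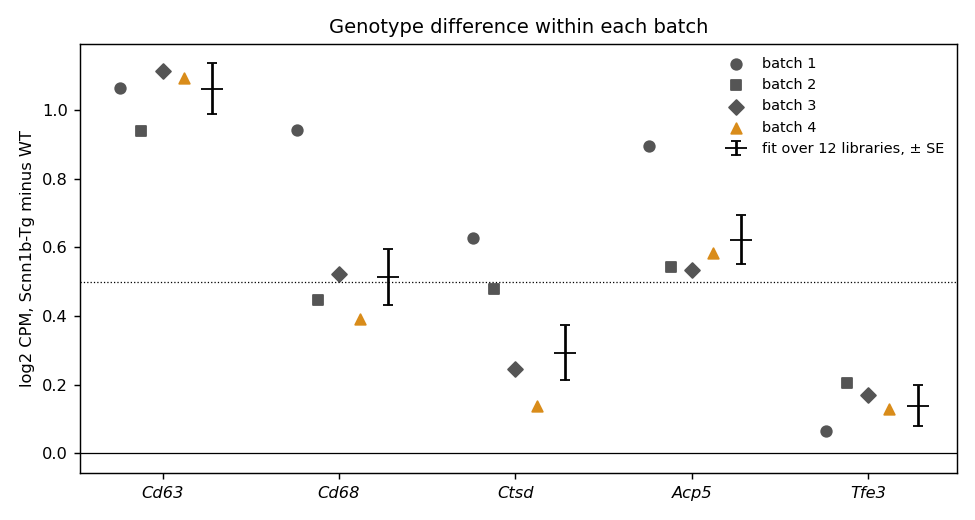
Difference in log2 CPM, *Scnn1b*-Tg minus WT, in each of the 4 batches (symbols) for the 5 genes, with the log2 fold change fitted over 12 libraries and its SE (bars); the dotted line is the fold threshold of 0.5. All 20 batch differences are above 0; *Cd63* stays between 0.94 and 1.11, and *Ctsd* goes from 0.63 in batch 1 to 0.14 in batch 4.

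Whether the genotype difference itself depended on the batch was tested with an added coefficient, the log2 fold change in batch 4 minus that in batches 1 to 3. The listing of the genes did not use this coefficient. It was −0.31 (SE 0.122) for *Ctsd*, −0.24 (SE 0.147) for *Cd68*, −0.07 (SE 0.146) for *Acp5*, −0.02 (SE 0.120) for *Tfe3* and 0.05 (SE 0.151) for *Cd63*. None of the 5 passed an adjusted p-value of 0.1, with the lowest at 0.621 for *Ctsd* (edgeR, unadjusted p = 0.0301), and 19 of 14255 rows did (0.133%). Of the 5, only *Ctsd* had an unadjusted p-value under 0.05, as had 1064 rows (7.46%). These values do not show that the difference is equal in the batches, since the SEs of 0.120 to 0.151 exceed or approach the smaller genotype differences, such as the 0.14 of *Tfe3*.

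With batch, 3 of the 5 members changed as well, in different directions, which is near the share of all rows that did. The level in batch 4 relative to the mean of batches 1 to 3, with genotype as a term, passed the test in 9245 of 14255 rows (64.9%). Of these, 4549 (31.9%) were higher and 4696 (32.9%) lower. Each batch has its own term in this fit, so these SEs and p-values hold the spread within batches only. The spread between batches is not in them, and batch 4 is a single batch. *Cd63* was lower in batch 4 by a log2 difference of −2.76 (SE 0.0779, edgeR adjusted p = 6.3e-09), more than its genotype difference in size. *Acp5* was lower as well (−0.33, SE 0.0711, edgeR adjusted p = 0.00243), and *Ctsd* was higher (0.43, SE 0.0794, edgeR adjusted p = 0.000979). *Cd68* at −0.13 (SE 0.0811, edgeR adjusted p = 0.201) and *Tfe3* at −0.10 (SE 0.0598, edgeR adjusted p = 0.191) did not pass. Without WT 1, *Cd68* passed this test too (−0.17, edgeR adjusted p = 0.0236). Across all tested rows the median absolute shift was 0.76 on the log2 scale, so that the shift of *Cd63* was well above it and those of the other members were below it. Batch 4 also differed in library depth and in how much its most abundant rows held, with the 10 highest rows at 9.39% to 10.8% of counts against 17.1% to 20.7% in batches 1 to 3, and the study used different library kits for its paired-end and single-end baseline libraries. The labels do not say which library was made with which kit, and the part of the kit in these shifts was not tested.

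*Cd63* has a transcribed processed pseudogene, *Cd63-ps* (ENSMUSG00000085939), with a row of its own. A 1063-base transcript of *Cd63* and an 875-base transcript of the pseudogene were 98% identical over 858 aligned columns (841 bases), so that reads of the gene and the pseudogene can be exchanged. *Cd63-ps* held 12.1% to 15.9% of the counts of both rows in 11 libraries. In WT 5 it held 1.46%, at 47 counts beside 3180 for *Cd63*. Its level was 89.99 ± 79.4 CPM in *Scnn1b*-Tg and 42.3 ± 39.4 CPM in WT libraries (SD, n = 6), and its batch differences, 1.09, 0.97, 1.05 and 2.15, were near those of *Cd63* in batches 1 to 3. Without WT 5 the difference in batch 4 was 0.88. With the counts of both rows summed, the log2 fold change was 1.08 (SE 0.0960) and the shift with batch −2.79 (SE 0.102), close to the values of *Cd63* alone.

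**Figure D3:**
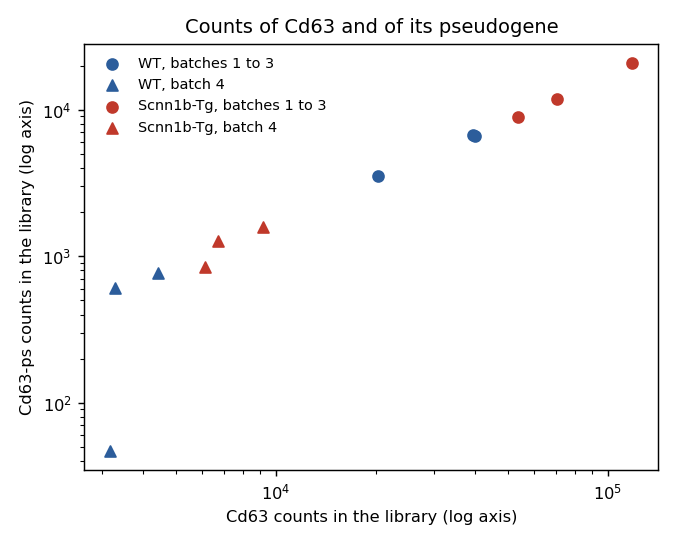
Counts of *Cd63-ps* (vertical log axis) against counts of *Cd63* (horizontal log axis) in each of the 12 libraries, coloured by genotype, with circles for batches 1 to 3 and triangles for batch 4. In 11 libraries the counts rise together, with a *Cd63-ps* share of 12.1% to 15.9% of both, and WT 5 lies far below at 47 counts (1.46%).

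Levels of different genes can be compared only per length, here as CPM per kilobase of merged exon. Merged exons join all transcripts of a gene and can be longer than the RNA that was counted. For *Cd63* they hold 3682 bases over 6 transcripts, while a single transcript of it has 1063 bases. The places and ranks below depend on this choice of length, and other lengths were not tried. In WT libraries *Ctsd* was highest at 2840 ± 658 CPM per kilobase, then *Cd68* at 429 ± 38.1, *Acp5* at 99.1 ± 14.6, *Cd63* at 69.5 ± 60.4 and *Tfe3* at 5.90 ± 0.285 (SD, n = 6). *Ctsd*, *Cd68* and *Tfe3* kept their place in each library. In WT libraries *Acp5* and *Cd63* overlapped in batches 1 to 3 and were apart in batch 4. *Cd63* lay at 96.0 to 156 CPM per kilobase and *Acp5* at 94.9 to 123 in batches 1 to 3, against 15.2 to 20.0 and 85.0 to 92.2 in batch 4. In *Scnn1b*-Tg libraries the same neighbours changed order, with *Cd63* at 208 to 326 and *Acp5* at 137 to 229 in batches 1 to 3 and 34.9 to 39.3 and 118 to 143 in batch 4. Among the 55 named genes of the lysosomal and endosomal lists, *Ctsd* ranked 2nd per length by the mean of the 6 WT libraries, after *Lyz2*, which encodes lysozyme, and *Cd68* ranked 5th, *Acp5* 15th and *Tfe3* 51st. This mean joins batches of unlike level, and for *Cd63*, whose level per length in batch 4 was far from that in batches 1 to 3, no rank is given.

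To set the 5 genes among others of their compartment, 6 lists with 189 different genes were used, of which 55 had a named row. Because of that selection, the counts are set beside those of the 1917 named rows, of which 70 (3.65%) were called and 1056 (55.1%) had a log2 fold change above 0, against 50.4% of all rows tested. Leaving out the 5 members, 3 of 50 genes were called, all higher, 41 had a log2 fold change above 0 and 9 below 0, and the median was 0.26, against 0.19 over the named rows and 0.002 over all rows tested. In each of the 4 batches 35 of the 50 were higher and 3 lower in *Scnn1b*-Tg AMs.

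Of the hydrolases and their cofactors, 25 of 64 had a named row, 22 of them had a log2 fold change above 0, and 3 were called higher and 0 lower (edgeR). Without *Ctsd* and *Acp5*, which were listed by this comparison, an unadjusted p-value under 0.05 was found for 21 of 23, beside 69.7% of the named rows and 9.38% of all rows. Beside *Acp5* the called hydrolase genes were *Ctsk* and *Lgmn*. *Ctsk*, which encodes cathepsin K, a collagen-degrading cysteine protease, had 474 to 1410 CPM (median 784) in *Scnn1b*-Tg and 313 to 777 CPM (median 419) in WT libraries. The groups overlapped over batches, and the log2 fold change was 0.77 (SE 0.0982, edgeR adjusted p = 0.0129). *Lgmn*, which encodes legumain, an endopeptidase that cuts after asparagine, had 257 to 381 CPM (median 308) against 199 to 239 CPM (median 209). Its groups did not overlap, and the log2 fold change was 0.55 (SE 0.0749, edgeR adjusted p = 0.0201). An adjusted p-value under 0.1, whatever the fold, was found for 4 of these 23, beside 4.85% of the named and 0.652% of all rows (edgeR). *Psap*, the precursor of the saposins, and *Ctsa*, cathepsin A, were the 2 of these 4 with smaller folds and were picked after their values were seen: *Psap* at 0.36 (SE 0.0686, edgeR adjusted p = 0.0738) and *Ctsa* at 0.28 (SE 0.0543, edgeR adjusted p = 0.0838). Of the 23 genes, 20 were above 0 and 2 were called, with a median log2 fold change of 0.26.

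Of the membrane proteins, 10 of 30 had a named row, 2 of them the members *Cd63* and *Cd68*. Without these, 8 of 8 had a log2 fold change above 0 with a median of 0.43, and 1 was called, *Gpnmb*, a glycoprotein of lysosomes and melanosomes. *Gpnmb* had 422 to 748 CPM in *Scnn1b*-Tg and 291 to 448 CPM in WT libraries, which overlapped, and a log2 fold change of 0.55 (SE 0.105, edgeR adjusted p = 0.0787). Of the tetraspanins, the protein family of Cd63, 4 of 14 had a named row. Apart from *Cd63* these were *Cd81* (0.35, edgeR adjusted p = 0.210), *Cd82* (0.17, edgeR adjusted p = 0.363) and *Tspan4* (0.75, edgeR adjusted p = 0.510), none of them called.

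In the other lists no gene was called. Of the vacuolar proton pump, 4 of 19 genes had a named row, with a median log2 fold change of 0.31. The 3 with the smallest p-values were *Atp6v1c1* (0.21, edgeR adjusted p = 0.221), *Atp6v0e* (0.23, edgeR adjusted p = 0.259) and *Tcirg1* (0.38, edgeR adjusted p = 0.418), and 3 of the 4 had an unadjusted p-value under 0.05. Of late endosome traffic and enzyme sorting, 9 of 43 had a named row, 4 above and 5 below 0, with a median of −0.10. Here the smallest p-values were those of *Vps29* (0.20, edgeR adjusted p = 0.315), *Pdcd6ip* (−0.20, edgeR adjusted p = 0.418) and *Lamtor1* (0.17, edgeR adjusted p = 0.425). Of the regulators, 4 of 20 had a named row. Beside *Tfe3*, *Rragc*, a subunit of the Rag GTPases that recruit mTORC1 to lysosomes, had 0.20 (edgeR adjusted p = 0.320), and *Mitf*, of the same factor family as *Tfe3*, had −0.78 (SE 0.315, edgeR adjusted p = 0.474). *Mitf* had 35.0 ± 22.9 CPM in *Scnn1b*-Tg and 47.5 ± 17.9 CPM in WT libraries (SD, n = 6), and its batch differences ran from −2.28 to 0.05.

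**Figure D4:**
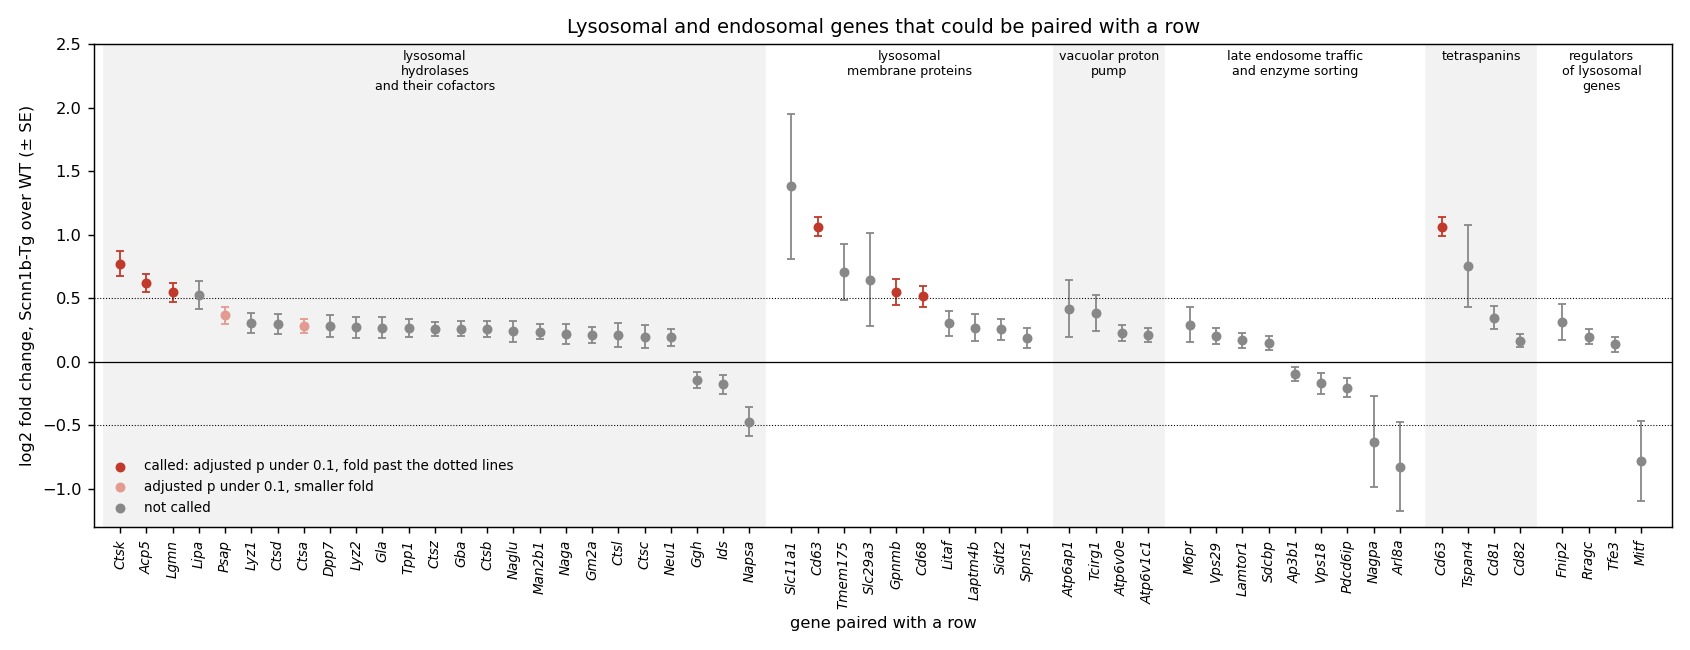
Log2 fold change of *Scnn1b*-Tg over WT with its SE (vertical axis) for each gene of the 6 lists that had a named row, grouped by list; red points were called, pale red points had an adjusted p-value under 0.1 with a smaller fold, and dotted lines mark the fold threshold. Of the 55 genes, 46 lie above 0; the 6 called genes (*Ctsk*, *Acp5*, *Lgmn*, *Cd63*, *Gpnmb* and *Cd68*) are in the hydrolase, membrane protein and tetraspanin lists, and *Cd63* is drawn in 2 of them.

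The calls of these other genes depended on single libraries to different degrees. *Ctsk* was called in each of the 12 fits that left out 1 library, *Lgmn* in 10, but not without Tg 1 or WT 1, and *Gpnmb* in 1, the fit without Tg 5. Without Tg 1 or without WT 1, *Ctsk* was the 1 gene of the 50 that was called. In batch 4 alone, with 6 libraries, none of the 3 was called, although the differences there, 0.67 for *Ctsk*, 0.49 for *Lgmn* and 0.40 for *Gpnmb*, had the same sign. The genes called there were others: *Tcirg1*, a subunit of the proton pump, was higher (0.67, edgeR adjusted p = 0.0391) and *Arl8a*, a GTPase that moves lysosomes along microtubules, lower (−1.04, edgeR adjusted p = 0.0197) in *Scnn1b*-Tg AMs. Genotype cannot be told apart from flow cell in batch 4, and the other batches were divided. The differences in batches 1, 2 and 3 were 0.61, −0.08 and −0.25 for *Tcirg1* and −2.62, 0.56 and 0.21 for *Arl8a*, so that batch 1 had the sign of batch 4 and batches 2 and 3 the opposite one. Batch 1 stood apart in these lists. In 29 of the 50 genes other than the members the largest of the 4 batch differences was that of batch 1, and in 23 Tg 1 was the highest *Scnn1b*-Tg library, against 33.1% and 26.3% of the named rows. Among the members the same held for *Cd68*, *Ctsd* and *Acp5* by batch difference, and for *Cd63*, *Cd68* and *Acp5* by level. Tg 1 was also the library with the highest level of *Chil3*, of the listed dendritic cell markers and of the epithelial markers (162 CPM). It had the lowest level of *Siglecf* (238 CPM), and the part of these in the differences of batch 1 was not tested.

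The genes whose pattern was most like that of each member were found among the other 1916 named rows by the root mean square difference of log2 CPM over the 12 libraries, after each row's batch means were taken off. *Cd63* was nearest to *Epas1* (0.159) and *Rgcc* (0.161), with a root mean square of 0.541 of its own. *Cd68* was nearest to *Lgmn* (0.0719) and *Pld3* (0.0761), *Ctsd* to *Ctsb* (0.05) and *Rac2* (0.0525), *Acp5* to *Cd68* (0.0809) and *Lgmn* (0.1), and *Tfe3* to *Inpp5d* (0.0264) and *Cd82* (0.0295). This measure joins size and shape of the pattern, so that small values go with genes that varied little. What is left after the batch means are taken off is largely the genotype difference, by which the members and the named rows were selected, so that near and far genes in the main restate like and unlike fold changes. Among the 5 members themselves, *Cd68* and *Acp5* were the nearest pair (0.0809), and *Cd63* and *Tfe3* the farthest apart (0.475). The libraries and their scaling are shared by all rows compared.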

How the data were processed

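Gene counts of 12 baseline libraries were analysed. Per the labels and the study's methods, the authors aligned reads to mm10 with HISAT2 in the nf-core RNAseq pipeline without strand and counted genes of GENCODE M20 with StringTie. The deposited counts are whole numbers made from transcript coverage, not normalized, so totals are not read numbers. The methods describe paired-end libraries made with a SMART-Seq kit and single-end libraries made with a directional NEBNext kit at another facility, and which library is which is not given in the sources used here. The labels do not name the cultures or animals behind a library.

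The table has no gene names. Each of 1999 genes in a shortened copy of the study's table of results was paired with the row whose weighted sum of counts gave its mean normalized count (largest relative difference 7.5e-15, next row at least 2.9e-07), and 1977 had a symbol. The fold changes and p-values in that table were not used. The other 17162 rows were tested without a name. Gene positions, exon lengths and overlaps came from GENCODE M21 of the same build.

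In R 4.3.3 and edgeR 4.0.16, rows were filtered by genotype with filterByExpr, scaled with TMM factors and fitted by quasi-likelihood with genotype and batch (4 levels). log2 CPM used a prior count of 2. An SE is the log2 fold change over the root of its F statistic. Alternatives used DESeq2 1.42.0 and limma 3.58.1 (voom). The fits and the pairing were tested on simulated data. Members, gene lists, marker lists, tests and alternatives were chosen with earlier results of these data known, except the design-matrix filter, the summed *Cd63* rows, the refits of the lists, the lists without members, the marker sum without *Chil3* and the *Cd63-ps* difference without WT 5, chosen after seeing the values. Named genes are the 5 members, the called genes of each list or otherwise its 3 smallest p-values, and the 2 most similar rows of each member. Beyond this rule, *Psap* and *Ctsa* were named for an adjusted p-value under 0.1, *Arl8a* for its call in batch 4 alone and *Lyz2* for its level. The other tetraspanins with a named row, the marker genes, *Cd63-ps* and the genes that share exon bases with a member were named too.

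The labels' batches pair the libraries: deviations from the genotype means had a correlation of 0.671 in batch 1, 0.668 in batch 2 and 0.519 in batch 3. Within batch 4 the numbers in the titles did not (−0.0712, −0.00567 and −0.0166). Between libraries of the same genotype (30 pairs) chi-square per row was at least 52.5, far above sampling noise, and no library was counted as a repeat.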

Additional observations from a re-analysis of the deposited data

Results flagged for a closer look

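The highest and the lowest library of a group of 6 were compared with their neighbours by Dixon's test in 96 groups, over the genes named, the tested marker genes and the share of *Cd63-ps*. Chance marks about 1 in 20 groups, and 8 values were marked. The *Lgmn* level in WT 2 was 239 CPM, apart from the other 5 WT libraries by 0.646 of the range. The share of *Cd63-ps* in the counts of *Cd63* and *Cd63-ps* was 1.46% in WT 5, apart from the other WT libraries by 0.900 of the range. Of the markers, 6 values were marked: *Chil3* at 59067 CPM, *Cd209a* at 35.7 CPM and *Mgl2* at 47.2 CPM in Tg 1, *Cd209a* at 2.73 CPM and *Mgl2* at 4.42 CPM in WT 1, and *Foxj1* at 1.95 CPM in WT 2. No level of the 5 members was marked in this way.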

How the results depend on the processing

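The number of called rows, 70, depended on the fit: 42 at an adjusted p-value under 0.05, 225 with DESeq2, 119 with limma-voom, 0 with no replicate block, 29 with a replicate block of 6 pairs, in which batch 4 is paired by the numbers in its titles, 0 in batches 1 to 3 only, and 26 (without Tg 1) to 54 (without Tg 5) with 1 library left out. The cause was not tested. With no replicate block the log2 fold change was 1.05 for *Cd63*, 0.52 for *Cd68* and 0.64 for *Acp5*, none of them called (edgeR adjusted p = 1, 0.611 and 1), and with the block of 6 pairs *Cd68* at 0.51 lost its call (edgeR adjusted p = 0.121). In batches 1 to 3 only, *Cd63* at 1.04, *Cd68* at 0.64 and *Acp5* at 0.66 were not called (edgeR adjusted p = 0.157, 0.750 and 0.594), with fewer libraries in the fit, and in batch 4 only *Cd68* at 0.39 was not (edgeR adjusted p = 0.142). The other settings, among them RLE scaling, no filter, the filter by design matrix, DESeq2 and limma-voom, changed no call of a member. *Ctsd* passed the adjusted p-value with DESeq2 (0.0365) at a fold of 0.29, still under the fold threshold.

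With 1 library left out, the log2 fold change ran from 1.02 to 1.11 for *Cd63* and from 0.57 to 0.66 for *Acp5*, called in 12 of 12 fits each, from 0.43 to 0.55 for *Cd68*, called in 8, and from 0.22 to 0.33 for *Ctsd* and 0.12 to 0.16 for *Tfe3*, called in 0. Leaving out a library of batches 1 to 3 also takes its partner out of the genotype estimate. The difference between batch 4 and batches 1 to 3 ran from −0.0404 to 0.16 for *Cd63*, −0.31 to −0.08 for *Cd68*, −0.40 to −0.21 for *Ctsd*, −0.12 to 0.0636 for *Acp5* and −0.0515 to 0.0424 for *Tfe3*, so that its sign is not fixed for *Cd63*, *Acp5* and *Tfe3*. The rows that passed this test, 19, became 11 without the filter, 201 with DESeq2 and 7 (without WT 5) to 58 (without Tg 6) with 1 library left out. The shift with batch ran from −2.81 to −2.70 for *Cd63*, −0.17 to −0.00596 for *Cd68*, 0.39 to 0.53 for *Ctsd*, −0.35 to −0.24 for *Acp5* and −0.11 to −0.04 for *Tfe3*, in 8860 to 9465 passing rows. Of the other list genes, 3 were called, 5 with DESeq2, 4 with limma-voom, 2 without the filter, 0 with no replicate block or in batches 1 to 3 only, and 1 to 3 with 1 library left out.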
